A study of Mus musculus with 16 samples.

Results

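Cytokine receptor chains that lie outside the IL-2 and IL-7 axis were followed in regulatory (Treg) and conventional (Tcon) CD4+ T cells of mice given venetoclax, a drug that blocks the survival protein BCL-2. The set is a list of 10 genes named by symbol: Il4ra, Il21r, Il6ra, Il27ra, Il6st, Il10ra, Il10rb, Ifngr1, Ifngr2 and Ifnar1. The rule for membership is the list of names and uses no measured value, though the list was drawn up with earlier results of these data known. All 10 were present among the 11067 genes measured in Treg and the 11171 measured in Tcon, and so among the 10774 genes measured in both.

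The mice were FOXP3-IRES-GFP reporter animals (strain B6.Cg-Foxp3tm2Tch/J, genotype WT), in which cells that express Foxp3, the lineage factor of Treg, are green. This strain and genotype were shared by every group, controls included. Total RNA of cells from spleen and lymph node was sequenced in 4 groups with 4 biological replicates each: CD4+ FOXP3+ Treg of mice given 50 mg/kg venetoclax for 14 days, CD4+ FOXP3- Tcon of mice given the same treatment, and Treg and Tcon of mice given vehicle for 14 days. The sources used here give neither the age and sex of the mice nor whether cells of several mice were pooled, so the p-values measure the spread between these libraries.

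These receptors work as pairs or small assemblies of chains. A chain that binds the cytokine joins a partner chain, kinases of the JAK family bound to their tails are activated, and STAT proteins are phosphorylated and enter the nucleus. IL-4 signals mainly through STAT6, and IL-6, IL-10, IL-21 and IL-27 largely through STAT3. In CD4+ T cells these routes are known for steering helper differentiation, for the stability and effector programme of Treg, and for the response to infection.

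Values are normalized read counts, in which a library's reads are divided by its size factor, given for replicates 1 to 4 in turn. Changes compare venetoclax with vehicle on the log2(normalized count + 1) scale, tested per subset with limma and adjusted over all genes by Benjamini and Hochberg, with a threshold of 0.05. Reads per library ran from 21335006 to 25027038 in Treg and from 22982210 to 24960570 in Tcon. Foxp3 stood at 748 to 921 CPM (read counts put on 1 common library size) in the 8 Treg libraries and at 27.3 to 32.4 CPM in the 8 Tcon libraries, which fits their labels, and Cd4 ran from 730 to 1142 CPM over all 16. Of 26 markers of B, CD8, NK, myeloid, dendritic, red cell and platelet identity, 13 were measured in Treg and 14 in Tcon. None passed the limma test in either subset (4 in Treg and 1 in Tcon had an unadjusted p under 0.05), nor with edgeR or DESeq2. With the replicate block 2 passed in Tcon, Itgam (limma adjusted p = 0.0283) and Hbb-bs (0.0391), both higher with venetoclax. In Treg 4 passed with the block. Hbb-bs (limma adjusted p = 0.0121), Hba-a1 (0.0181) and Zbtb46 (0.0428) were higher with venetoclax and Cd8a (0.0114) lower. All measured markers summed to 39.2 to 82.8 CPM in venetoclax Treg, against 39.2 to 55.3 CPM in vehicle Treg. In Tcon the sum was 44.6 to 78.7 CPM with venetoclax, against 42.4 to 55.1 CPM with vehicle. Hbb-bs and Hba-a1 together reached 33.8 CPM in venetoclax Treg and 12.6 CPM in vehicle Treg. Defining markers of several of these cells (Pax5, Ighm, S100a8, Siglech, Ncr1) were not among the measured genes. Libraries also differed in Ddx3y, a Y-linked RNA helicase gene: its normalized count in Treg was 1695, 5539, 2872 and 1.0 in venetoclax libraries, against 0, 5326, 1.0 and 0 in vehicle libraries, and Tcon libraries of the same codes followed the same pattern. Each member's result and each list's count was therefore also computed with Ddx3y as a covariate and without venetoclax replicates 1 and 3, whose Ddx3y was intermediate, and is given so where the call ends or the count moves by much.

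The main pattern was a rise of 3 ligand-binding chains in both subsets, Ifngr1, Il10ra and Il21r. Ifngr2 and Il10rb, the partner chains of Ifngr1 and Il10ra, did not rise. The pattern does not cover all ligand-binding chains, since Il4ra and Il27ra passed in neither subset and Il6ra fell in Treg. Il2rg, the partner of Il21r, did not pass with limma, though in Tcon it passed with DESeq2 (adjusted p = 0.00828). The Tcon call of Il21r ended with Ddx3y as a covariate (limma adjusted p = 0.102). In Treg 6 of 10 members passed the test, 3 higher and 3 lower in venetoclax (19.6% of all Treg genes passed, 10.7% higher and 8.81% lower). In Tcon 4 of 10 passed, 3 higher and 1 lower (6.91% of all Tcon genes passed, 3.92% higher and 2.99% lower). The 3 members that rose were the same in both subsets. Venetoclax and vehicle libraries did not overlap for 5 members in Treg (22.7% of all Treg genes) and for 4 in Tcon (16.3% of all Tcon genes). The median log2 change over the 10 members was 0.02 in Treg and 0.05 in Tcon, against 0.0 over all genes in each. With venetoclax and vehicle libraries of the same number paired as a block, 5 Tcon members passed. The passing share of all Tcon genes was then 16.8%. Vehicle library 1 of Tcon did not correlate most with its own number, so this pairing is uncertain. With upper-quartile scaling the split of all passing Treg genes turned to 969 higher and 1348 lower, against 1189 higher and 975 lower in the main test; the 3 members that rose still rose. In the authors' deposited table the members with an adjusted p under 0.05 were 6 in Treg (20.5% of all genes there) and 4 in Tcon (11.3%), the same genes as here.

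**Figure D1:**
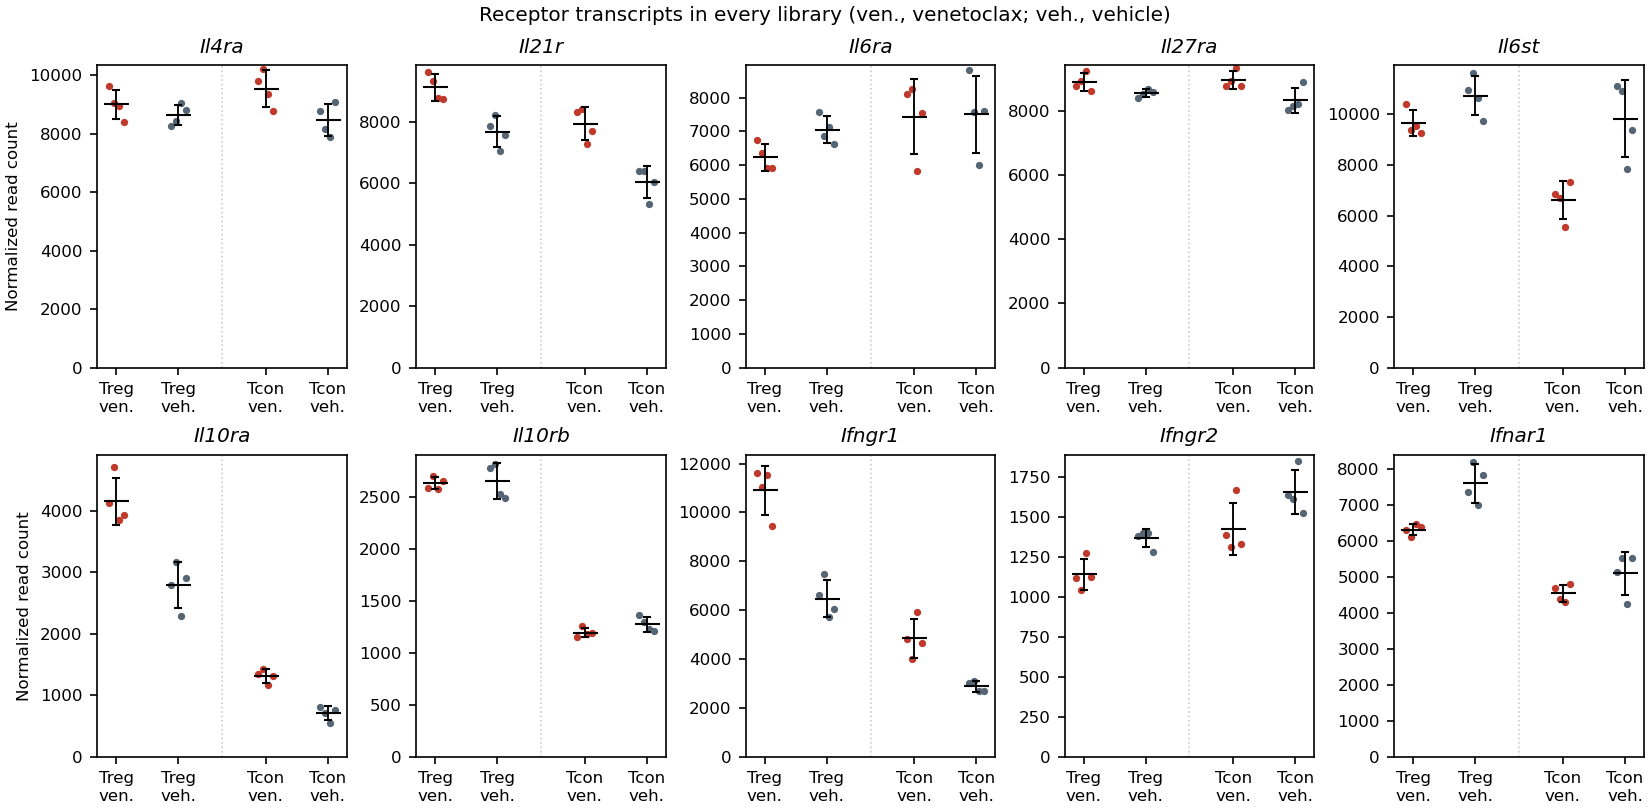
Normalized read count of each of the 10 receptor genes in all 16 libraries, 1 panel per gene, with the 4 libraries of each group as points (red venetoclax, grey vehicle) and the group mean ± SD in black. Treg groups stand left and Tcon groups right. The venetoclax points of Ifngr1, Il10ra and Il21r lie above all vehicle points in both subsets.

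Ifngr1, on chromosome 10 (19591949 to 19610229, GRCm38.p6), encodes the chain that binds interferon gamma. In Treg it had 11613, 11036, 11527 and 9454 normalized counts with venetoclax, against 6627, 7461, 5736 and 6065 with vehicle. Every venetoclax library was above every vehicle library. The means were 10908 ± 1002 with venetoclax and 6472 ± 755 with vehicle (SD, n = 4 each), a log2 change of 0.76 (SE 0.08, limma adjusted p = 0.000124). In Tcon it had 4829, 3987, 5913 and 4675 normalized counts with venetoclax, against 3034, 3104, 2683 and 2707 with vehicle. Here too the groups did not overlap, and the spread was wider with venetoclax, where replicate 3 was the highest and replicate 2 the lowest. The log2 change in Tcon was 0.74 (SE 0.11, limma adjusted p = 0.00366). In bulk RNA of a sorted population, more transcript per cell and more cells of a type that carries the transcript cannot be told apart, and this holds for every change given here.

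Ifngr2, on chromosome 16 (91547059 to 91564007), encodes the partner chain that completes the interferon gamma receptor and carries JAK2. In Treg it fell where Ifngr1 rose. Treg libraries had 1122, 1047, 1277 and 1125 normalized counts with venetoclax, against 1383, 1404, 1403 and 1285 with vehicle, so that the groups stood apart by a small gap. It fell by 0.26 on the log2 scale (SE 0.06, limma adjusted p = 0.0127). In Tcon it had 1391, 1312, 1669 and 1333 normalized counts with venetoclax, against 1640.3, 1616, 1853 and 1526 with vehicle. Replicate 3 was the highest in both Tcon groups, which overlapped through it. The Tcon log2 value was -0.22 (SE 0.09, limma adjusted p = 0.188), and the call was made with the replicate block (adjusted p = 0.0236). It was also made without both libraries numbered 3, where 6 Tcon members passed, Ifnar1 among them.

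Il10ra, on chromosome 9 (45253837 to 45269149), encodes the chain that binds IL-10, a cytokine that restrains inflammation. It showed the largest log2 change of the 10 members in Tcon. There it had 1340 normalized counts in replicate 1, 1433 in replicate 2, 1161 in replicate 3 and 1309 in replicate 4 with venetoclax, against 815, 719, 545 and 763 with vehicle. The groups lay far apart, with replicate 3 the lowest in each. The Tcon means were 1311 ± 113 with venetoclax and 710.3 ± 117 with vehicle (SD, n = 4 each), a log2 change of 0.89 (SE 0.12, limma adjusted p = 0.00217). Treg libraries had 4125, 4702, 3845 and 3924 normalized counts with venetoclax, against 2794, 3166, 2279 and 2910.2 with vehicle. Again no library of one group reached the other, and the log2 change was 0.58 (SE 0.09, limma adjusted p = 0.00096).

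Il10rb, on chromosome 16 (91406157 to 91425834), encodes the shared partner chain of the IL-10 receptor, which also serves IL-22 and the lambda interferons. In Treg it had 2592, 2709.8, 2585 and 2654 normalized counts with venetoclax, against 2784, 2826, 2532 and 2489 with vehicle. Its vehicle libraries spanned all of its venetoclax libraries. The log2 value was -0.01 in Treg (SE 0.05, limma adjusted p = 0.912) and -0.09 in Tcon (SE 0.07, adjusted p = 0.468).

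Since partner chains sit in the same library, their ratio can be read per library without any scaling between libraries. Per kilobase of exon, Ifngr1 over Ifngr2 was 18.2, 18.5, 15.8 and 14.8 in venetoclax Treg, against 8.41, 9.33, 7.18 and 8.29 in vehicle Treg. In Tcon it was 6.09, 5.34, 6.22 and 6.16 with venetoclax, against 3.25, 3.37, 2.54 and 3.11 with vehicle. The mean ratio was thus 2.03 times as high with venetoclax in Treg and 1.94 times in Tcon, with no overlap. Il10ra over Il10rb averaged 0.83 ± 0.06 in venetoclax Treg and 0.55 ± 0.06 in vehicle Treg (SD, n = 4 each). In Tcon it averaged 0.58 ± 0.04 with venetoclax and 0.29 ± 0.04 with vehicle, and in both subsets the groups did not overlap. With exon lengths from all annotated transcripts in place of basic ones, Il10ra over Il10rb averaged 1.71 ± 0.13 in venetoclax Treg and 1.14 ± 0.13 in vehicle Treg, and 1.19 ± 0.09 in venetoclax Tcon and 0.61 ± 0.09 in vehicle Tcon (SD, n = 4 each). Which of these chains stands higher per length thus depends on the exon model, except in vehicle Tcon, where Il10rb stands higher with both. The ratio of venetoclax to vehicle does not depend on it. These ratios follow from the values above and were not tested by themselves.

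**Figure D2:**
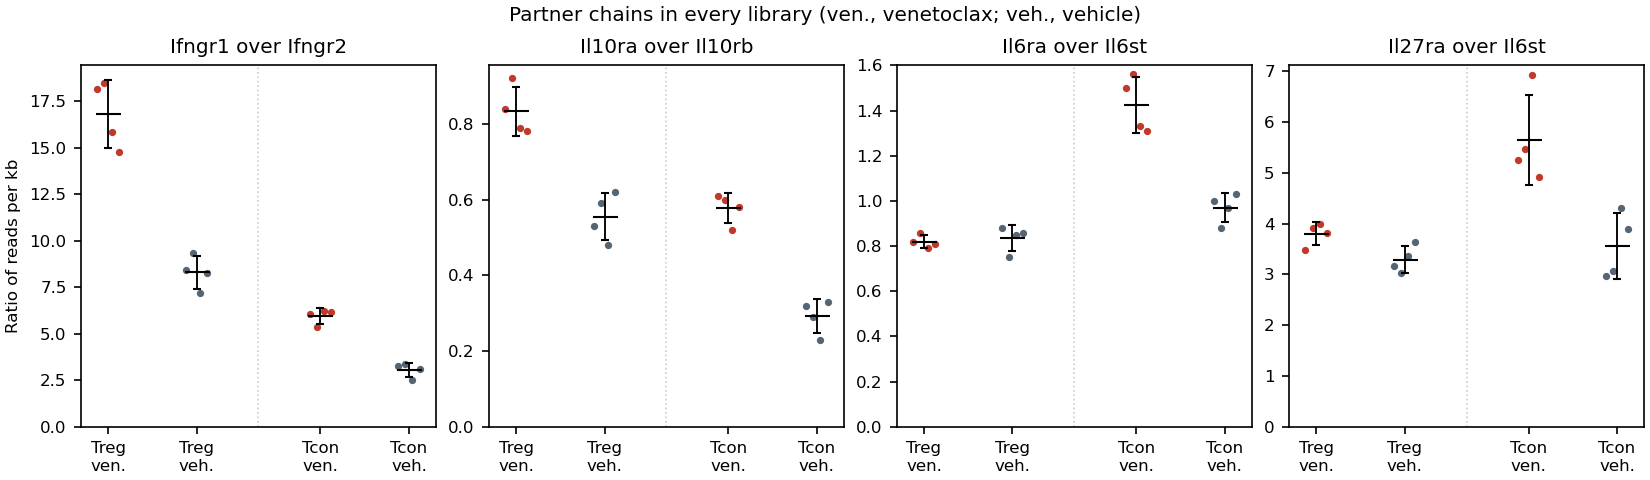
Ratio of partner chains in reads per kilobase of exon, 1 panel per pair, with the 4 libraries of each group as points (red venetoclax, grey vehicle) and mean ± SD in black. Ifngr1 over Ifngr2 and Il10ra over Il10rb stand higher with venetoclax in both subsets without overlap, while the ratios over Il6st stand apart in Tcon and overlap in Treg.

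Il21r and Il4ra lie next to each other on chromosome 7, within 82.1 kb, and both pair with the common gamma chain. Il21r (125603252 to 125634397) encodes the receptor chain for IL-21, a product of follicular helper cells. In Treg it had 9632, 9342, 8766 and 8757 normalized counts with venetoclax, against 7873, 8235, 7065 and 7584 with vehicle. In Tcon it had 8318, 8435, 7288 and 7699 with venetoclax, against 6418, 6393, 5328 and 6048 with vehicle. In neither subset did the groups overlap. The rise was smaller than that of Ifngr1 or Il10ra, with a log2 change of 0.25 in Treg (SE 0.06, limma adjusted p = 0.00846) and 0.39 in Tcon (SE 0.08, adjusted p = 0.0175). The Tcon call ended with Ddx3y as a covariate (limma adjusted p = 0.102) and without venetoclax replicate 1 (0.075) or 2 (0.0642). Without venetoclax replicates 1 and 3 together, Il21r passed in neither subset.

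Il4ra (125552271 to 125579474) encodes the chain that binds IL-4 and, with Il13ra1, IL-13. Its range in Treg was 8410.1 to 9628 normalized counts with venetoclax, against 8285 to 9049.8 with vehicle. In Tcon the range was 8790.2 to 10233 with venetoclax, against 7877 to 9075 with vehicle. The ranges overlapped in both subsets, and the log2 value was 0.06 in Treg (SE 0.05, limma adjusted p = 0.465) and 0.17 in Tcon (SE 0.08, adjusted p = 0.214). The shared partner Il2rg, which is not one of the 10, had a log2 value of 0.09 in Treg (limma adjusted p = 0.189) and 0.21 in Tcon (adjusted p = 0.105). In Tcon its groups did not overlap, and it passed with the replicate block (limma adjusted p = 0.0332) and with DESeq2 (adjusted p = 0.00828).

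Il6st, on chromosome 13 (112464070 to 112506860), encodes gp130, the signalling chain shared by the IL-6 and IL-27 receptors. In Tcon it had 6871, 6705, 5560.5 and 7344 normalized counts with venetoclax, against 11129, 10914, 7856 and 9406 with vehicle. All venetoclax libraries lay below all vehicle libraries, with replicate 3 the lowest in each group. Tcon means were 6620.2 ± 757 with venetoclax and 9826 ± 1521 with vehicle (SD, n = 4 each), and Il6st fell by 0.56 on the log2 scale (SE 0.12, limma adjusted p = 0.0213). This call was lost in 5 of 8 runs that left out 1 library: without vehicle replicate 1 (limma adjusted p = 0.0705) or 2 (0.0676), and without venetoclax replicate 1 (0.0636), 2 (0.0594) or 3 (0.0526). It was also lost with Ddx3y as a covariate (0.0864) and without venetoclax replicates 1 and 3; with the replicate block the adjusted p was 0.000226. In Treg Il6st had 10409, 9381, 9539 and 9287 normalized counts with venetoclax, against 10949.9, 11642, 10649 and 9748 with vehicle. The Treg groups overlapped, and the log2 value of -0.15 (SE 0.06, limma adjusted p = 0.0878) did not pass. It passed without vehicle replicate 4 (0.0287), with Ddx3y as a covariate (0.0445) and with upper-quartile scaling.

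Il6ra, on chromosome 3 (89869324 to 89913196), encodes the chain that binds IL-6. Treg libraries had 6746, 6351, 5915 and 5905 normalized counts with venetoclax, against 7569, 6863, 7142 and 6619.6 with vehicle. Venetoclax replicate 1 lay above the lowest vehicle library. Il6ra fell by 0.18 on the log2 scale in Treg (SE 0.06, limma adjusted p = 0.0431), close to the threshold. The call was lost without vehicle replicate 1 (0.13) or 3 (0.0956), without venetoclax replicate 2 (0.0644), 3 (0.114) or 4 (0.118), with total count scaling, with Ddx3y as a covariate (0.082), without both libraries numbered 3, and without venetoclax replicates 1 and 3. In Tcon the libraries ran from 5821 to 8262 with venetoclax, against 6013 to 8808 with vehicle, with replicate 3 the lowest in each group. The Tcon log2 value was -0.01 (SE 0.14, limma adjusted p = 0.97).

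Il27ra, on chromosome 8 (84030286 to 84042600), encodes the chain that binds IL-27 together with gp130. Its coefficient of variation within a group was between 1.4% and 4.8%. Treg libraries ran from 8600.2 to 9248 normalized counts with venetoclax, against 8398 to 8685 with vehicle, and Tcon libraries from 8763 to 9345 with venetoclax, against 8009 to 8898 with vehicle. The log2 value was 0.06 in Treg (SE 0.04, limma adjusted p = 0.407) and 0.11 in Tcon (SE 0.07, adjusted p = 0.376). In Tcon, Il6ra over Il6st per kilobase of exon averaged 1.42 ± 0.13 with venetoclax and 0.97 ± 0.06 with vehicle (SD, n = 4 each). Il27ra over Il6st averaged 5.64 ± 0.88 with venetoclax and 3.56 ± 0.65 with vehicle in Tcon. Neither Tcon ratio overlapped between the groups, whereas in Treg both did, at 0.82 ± 0.03 with venetoclax and 0.83 ± 0.06 with vehicle for Il6ra over Il6st.

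Ifnar1, on chromosome 16 (91485032 to 91510523), encodes a chain of the receptor for type I interferons, which carries TYK2. In Treg it had 6316, 6107, 6468 and 6383 normalized counts with venetoclax, against 7362, 8212, 7005 and 7835 with vehicle. All venetoclax libraries were below all vehicle libraries and lay close together. Ifnar1 fell by 0.26 on the log2 scale in Treg (SE 0.05, limma adjusted p = 0.00474). In Tcon it had 4686, 4390.5, 4295 and 4815 normalized counts with venetoclax, against 5136, 5524, 4258 and 5529.6 with vehicle. Vehicle replicate 3 was the lowest of all 8 Tcon libraries, the only overlap between the groups. The Tcon log2 value was -0.16 (SE 0.09, limma adjusted p = 0.328), and it passed without vehicle replicate 3 (adjusted p = 0.0303).

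Ifnar1 shares a stretch of 191.2 kb on chromosome 16 with Ifnar2, Il10rb and Ifngr2, which stand in the order Ifnar2, Il10rb, Ifnar1, Ifngr2. Within this stretch Ifnar1 and Ifngr2 fell in Treg, each by 0.26, while Il10rb did not pass. Ifnar2, the other type I interferon receptor chain and not one of the 10, averaged 2651 ± 39.5 normalized counts in venetoclax Treg and 2547 ± 162 in vehicle Treg (SD, n = 4 each; limma adjusted p = 0.45). Annotated genes overlap 3 of the 10 members: Palm3 overlaps Il27ra, the long non-coding Gm46811 overlaps Il6ra, and the microRNA gene Mir7086 lies within Il10ra. The strand setting of the read counting is not given, so reads of these overlapping genes cannot be told apart.

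**Figure D3:**
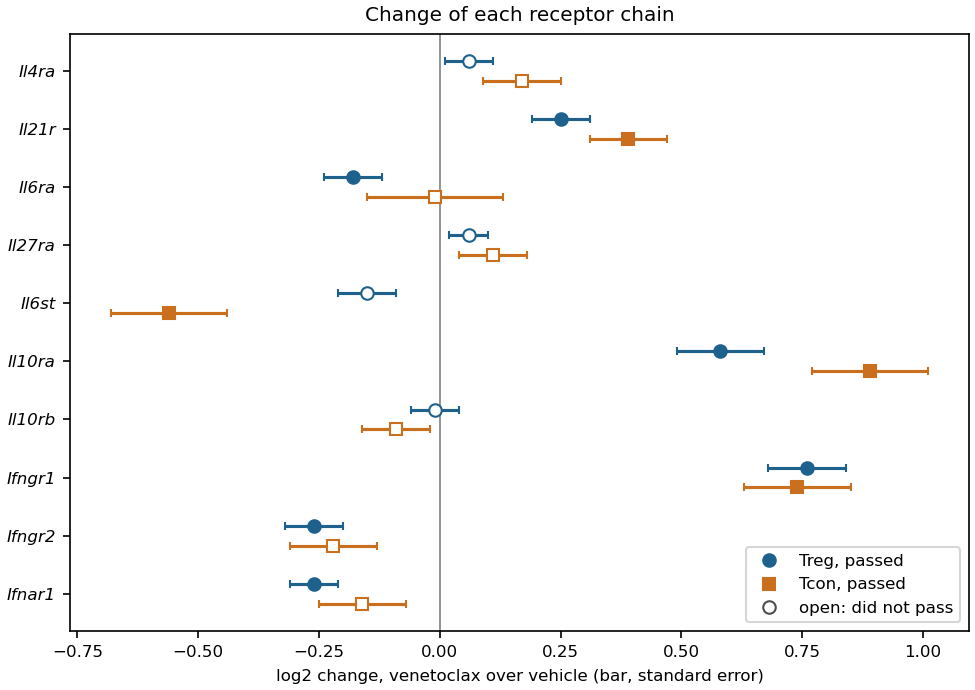
Log2 change of each receptor gene, venetoclax over vehicle, with its standard error, for Treg (circles) and Tcon (squares), filled where the limma adjusted p was under 0.05. Ifngr1 lies at 0.76 in Treg and 0.74 in Tcon, and Il6st lies at -0.56 in Tcon and -0.15 in Treg.

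Promoter windows of 300 bases (250 before to 50 after a RefSeq start, GRCm38.p6) were held for 7 of the 10 members, all but Il27ra, Il10ra and Il10rb. For Ifnar1 and Il21r that start lies inside the gene span given above, which begins at 91485032 for Ifnar1 and 125603252 for Il21r. Much of these windows thus lies within the gene. Shown are those of the 2 interferon gamma receptor chains, which moved in opposite directions in Treg, of Ifnar1, which fell with Ifngr2 in Treg, and of Il21r, which rose in both subsets. All 4 lie on the plus strand: chr10:19591699-19591998 (Ifngr1), chr16:91546809-91547108 (Ifngr2), chr16:91484965-91485264 (Ifnar1) and chr7:125603179-125603478 (Il21r). Each is written 5′ to 3′ from RefSeq, and capitals mark a match to 1 of the 4 motifs described after them.
Ifngr1: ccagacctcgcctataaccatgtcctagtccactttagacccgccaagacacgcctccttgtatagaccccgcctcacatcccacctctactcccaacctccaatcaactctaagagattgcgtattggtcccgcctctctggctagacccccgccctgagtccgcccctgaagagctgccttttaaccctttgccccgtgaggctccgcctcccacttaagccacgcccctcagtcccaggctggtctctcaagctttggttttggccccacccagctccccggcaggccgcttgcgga
Ifngr2: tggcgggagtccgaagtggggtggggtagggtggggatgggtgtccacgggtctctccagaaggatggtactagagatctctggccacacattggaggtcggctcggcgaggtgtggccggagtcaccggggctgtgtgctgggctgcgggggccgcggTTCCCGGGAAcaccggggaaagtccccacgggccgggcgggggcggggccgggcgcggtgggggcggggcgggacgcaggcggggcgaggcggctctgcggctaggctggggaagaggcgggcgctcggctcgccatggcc
Ifnar1: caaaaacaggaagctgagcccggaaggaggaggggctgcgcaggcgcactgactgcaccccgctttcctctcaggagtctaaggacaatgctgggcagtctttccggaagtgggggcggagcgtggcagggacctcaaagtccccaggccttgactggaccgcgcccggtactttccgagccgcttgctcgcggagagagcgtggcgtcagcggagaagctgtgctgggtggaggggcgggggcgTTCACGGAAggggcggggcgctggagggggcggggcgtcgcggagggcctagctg
Il21r: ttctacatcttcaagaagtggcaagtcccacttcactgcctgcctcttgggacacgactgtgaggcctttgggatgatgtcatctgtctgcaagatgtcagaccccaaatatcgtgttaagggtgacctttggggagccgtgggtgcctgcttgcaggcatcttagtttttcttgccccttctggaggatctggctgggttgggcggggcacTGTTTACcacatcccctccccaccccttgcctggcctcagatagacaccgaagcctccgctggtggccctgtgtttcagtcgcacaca

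Motifs were searched on both strands. The STAT motif TTCNNNGAA stood in the Ifnar1 window alone of the 7 (as TTCACGGAA) and in 8.3% of 32851 mouse windows of the same length. The wider-spaced STAT6-type motif TTCNNNNGAA stood only in the Ifngr2 window (as TTCCCGGGAA) and in 6.95% of all windows. The FOXO motif GTAAACA stood only in the Il21r window, on the reverse strand (read there as TGTTTAC), and in 3.65% of all windows. The interferon-stimulated response element core GAAANNGAAA stood in none of the 7 and in 3.44% of all windows. No window held more than 1 of these matches, and the Ifngr1 window held none. The matches of Ifnar1 and Il21r lie inside the gene spans given above, not before them. The 7 windows were rich in GC, between 56% and 74.3%, against a median of 52.7% over all windows.

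The response of Treg was set against that of Tcon as an interaction over all 16 libraries. None of the 10 members passed with limma, edgeR or DESeq2 (1.3% of the 10774 shared genes passed with limma, 1.31% with edgeR and 2.74% with DESeq2), and 1 member, Il6st, had an unadjusted p under 0.05. For Ifngr1 the log2 change in Treg minus that in Tcon was 0.02, with a 95% interval from -0.28 to 0.31. The intervals given here use the normal distribution and are narrower than those of the moderated t that gave the limma p. For Il6st the difference was 0.41 (SE 0.14, 95% interval 0.13 to 0.69), with a limma p of 0.0115 and an adjusted p of 0.263. For Il10ra it was -0.32 (SE 0.17, 95% interval -0.64 to 0.01, limma adjusted p = 0.565). Treg and Tcon libraries that share a code deviated together from their group means, and with codes as a block 389 genes (3.61%) passed in place of 140, still none of the members (limma adjusted p = 0.0711 for Il6st and 0.0572 for Il10ra). The fall of Il6st past the threshold in Tcon and not in Treg was therefore not shown to differ between the subsets.

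Levels in Treg and Tcon were set side by side as CPM over the 10774 shared genes, since each table was normalized by itself. Of the 10 members, 7 did not overlap between Treg and Tcon libraries under venetoclax (48.5% of all shared genes) and 6 did not under vehicle (36.5%). Il10ra stood 3.17 times as high in Treg under venetoclax and 3.90 times under vehicle. Its CPM under venetoclax was 177 ± 15.7 in Treg and 55.7 ± 5.3 in Tcon, and under vehicle 118 ± 16.8 in Treg and 30.1 ± 5.8 in Tcon (SD, n = 4 each). Ifngr1 was higher in Treg by 2.26 times under venetoclax and 2.24 times under vehicle, and Il10rb by 2.21 and 2.08 times. For these 3 genes edgeR on the recovered reads gave an adjusted p of at most 2.34e-07 in either treatment. Ifnar1 was higher in Treg by 1.39 times under venetoclax and 1.48 times under vehicle.

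Ifngr2 was lower in Treg without overlap, at 0.80 of the Tcon level under venetoclax and 0.82 under vehicle. So the chain that binds interferon gamma stood higher in Treg and its partner lower. Il21r was higher in Treg by 1.15 times under venetoclax and 1.27 times under vehicle without overlap, and edgeR called it under vehicle (adjusted p = 0.00455) but not under venetoclax (0.105). With Treg and Tcon libraries of 1 code as a block, edgeR called it under venetoclax too (adjusted p = 0.0123). The ratios are of plain CPM, whereas edgeR scales libraries in its own way. Its log2 values of Treg over Tcon lay slightly lower for each member. For Il21r they were 0.14 against 0.2 under venetoclax and 0.27 against 0.34 under vehicle. Il6st did not overlap under venetoclax, at 411 ± 19.0 CPM in Treg and 282 ± 36.0 CPM in Tcon (SD, n = 4 each; edgeR adjusted p = 0.000664). Under vehicle Il6st overlapped, at 453 ± 36.1 CPM in Treg and 417 ± 76.5 CPM in Tcon (adjusted p = 0.706). Il4ra, Il27ra and Il6ra overlapped between the subsets in both treatments, with ratios of Treg over Tcon between 0.84 and 1.03. Of these, edgeR called Il6ra lower in Treg under venetoclax (adjusted p = 0.0237), and with the block it also called Il4ra lower (0.0361, against 0.0712 without the block).

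Levels between genes were compared as RPKM, which is CPM per kilobase of exon. In venetoclax Treg the order from the top was Ifngr1 at 220.0, Il21r at 153 and Il27ra at 142, then Il4ra at 73.1, Ifnar1 at 68.9, Il10rb at 60.7, Il10ra at 50.5, Il6st at 37.5, Il6ra at 30.7 and Ifngr2 at 13.1. Il21r and Il27ra overlapped there, as did Il4ra and Ifnar1. In vehicle Treg the order was Il27ra at 135, Ifngr1 at 129, Il21r at 128, Ifnar1 at 82.0, Il4ra at 69.4, Il10rb at 60.6, Il6st at 41.3, Il6ra at 34.4, Il10ra at 33.6 and Ifngr2 at 15.6. There the first 3 overlapped as neighbours, and so did Il6ra and Il10ra. In venetoclax Tcon it was Il27ra at 143, Il21r at 133, Ifngr1 at 97.5, Il4ra at 77.2, Ifnar1 at 49.5, Il6ra at 36.6, Il10rb at 27.5, Il6st at 25.7, Ifngr2 at 16.3 and Il10ra at 15.9. The overlapping neighbours there were Il27ra and Il21r, Ifngr1 and Il4ra, Il6ra and Il10rb, Il10rb and Il6st, and Ifngr2 and Il10ra. In vehicle Tcon it was Il27ra at 132, Il21r at 101, Il4ra at 68.2, Ifngr1 at 57.7, Ifnar1 at 55.4, Il6st at 38.0, Il6ra at 36.8, Il10rb at 29.2, Ifngr2 at 18.9 and Il10ra at 8.6. Il4ra to Ifnar1 overlapped as neighbours, and so did Il6st to Il10rb. The order depends on the exon model. In vehicle Treg 6 of 9 neighbouring pairs did not overlap with basic transcripts, and 3 with all annotated transcripts. In each of the other groups the number was the same with both, but the order changed. In vehicle Tcon Ifngr2 stood above Il10rb with all annotated transcripts (18.6 and 14.2), again without overlap. In venetoclax Treg Il10ra then stood above Ifnar1 (50.5 and 45.3), also without overlap.

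**Figure D4:**
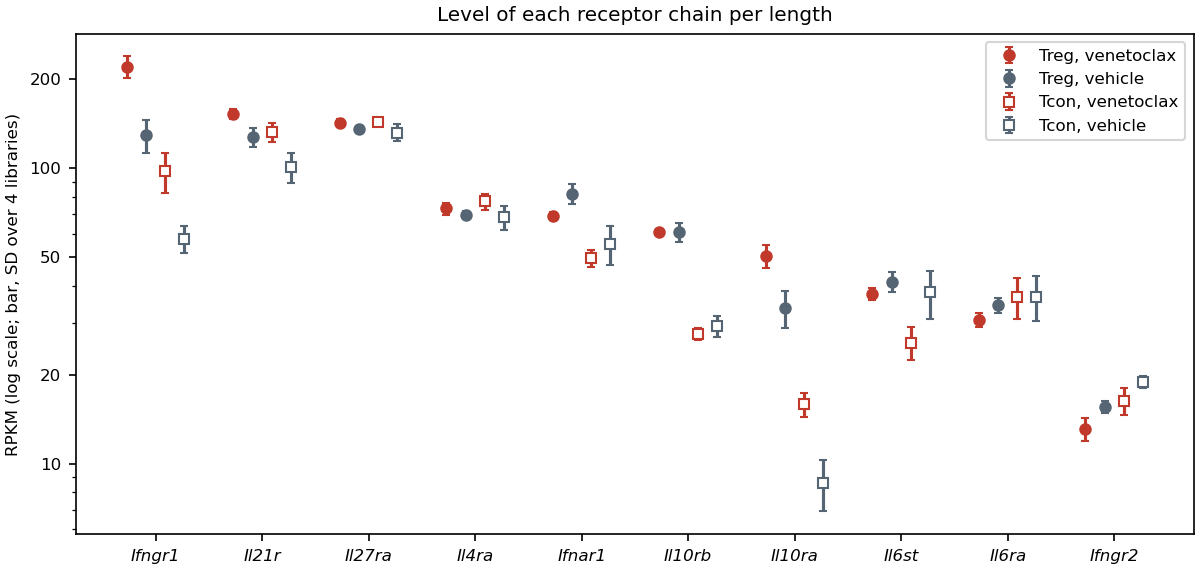
RPKM of each receptor gene on a log axis (mean ± SD over 4 libraries), ordered by the level in venetoclax Treg; filled circles are Treg, open squares Tcon, red venetoclax and grey vehicle. Ifngr1 reaches 220.0 in venetoclax Treg, and Il10ra lies lowest in vehicle Tcon at 8.6.

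Other genes of these pathways were described from lists. In the main test over all genes 10.7% were higher and 8.81% lower in Treg, and 3.92% higher and 2.99% lower in Tcon. A list's counts in that test are to be read against these shares. The block called 16.8% of all Tcon genes. DESeq2 called 2409 of 11067 genes in Treg and 1364 of 11171 in Tcon. With Ddx3y as a covariate 1525 genes passed in Treg and 326 in Tcon. Without venetoclax replicates 1 and 3 these numbers were 614 and 116. Among 28 other cytokine receptor chains, 20 were measured in Treg, of which 8 rose and none fell (11 had an unadjusted p under 0.05, and edgeR and DESeq2 called 8 each). Their median log2 change was 0.44, against 0.0 over all genes. Il18r1, the IL-18 receptor chain, had 2903 ± 301 normalized counts in venetoclax Treg and 1715 ± 75.2 in vehicle Treg (SD, n = 4 each), a log2 change of 0.75 (limma adjusted p = 7.5e-05). Il1rl1, the receptor for IL-33, rose by 1.23, Il9r by 0.76 and Il12rb1, shared by the IL-12 and IL-23 receptors, by 0.47. In Tcon 22 were measured and 1 rose, Il12rb2, with 210.2 ± 55.8 normalized counts with venetoclax and 114 ± 29.3 with vehicle (log2 change 0.88, limma adjusted p = 0.0366). With the replicate block 4 were called in Tcon, and the median was 0.12. With Ddx3y as a covariate the counts were again 8 in Treg and 1 in Tcon, and without venetoclax replicates 1 and 3 they were 6 and 0.

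Of 10 ligands of the receptors, 3 were measured in Treg and 5 in Tcon. Ebi3, a subunit of IL-27, rose in Treg, to 303 ± 32.3 normalized counts with venetoclax, against 207 ± 21.9 with vehicle (SD, n = 4 each; log2 change 0.55, limma adjusted p = 0.00404), and Ifng and Il10 did not pass. Ifng in Treg had a log2 value of -0.54 (limma adjusted p = 0.0918) and did not pass with edgeR (0.0788). It passed with DESeq2 (0.0377), with the replicate block (limma adjusted p = 0.0263) and with Ddx3y as a covariate (limma adjusted p = 0.0252). In Tcon no ligand passed with limma (1 had an unadjusted p under 0.05; edgeR called 0, DESeq2 1, and the replicate block 2). All 11 Janus kinases and STATs were measured in both subsets. Stat3 rose in Treg by 0.25 (limma adjusted p = 0.00438) and Jak3, which the common gamma chain carries, by 0.23 (0.0462), and the median was 0.14. These 2 of 11 are near the share of all Treg genes that passed (19.6%). The Jak3 call was lost with edgeR (adjusted p = 0.0635), with Ddx3y as a covariate (0.171) and without venetoclax replicates 1 and 3 (0.196). In Tcon none passed with limma (3 had an unadjusted p under 0.05; edgeR called 0 and DESeq2 1), and Stat3 had a log2 value of 0.33 (adjusted p = 0.0609), which passed with the block (0.00151), as 2 of the 11 did.

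Among 16 feedback genes (SOCS proteins, phosphatases and PIAS proteins), 4 rose and 1 fell in Treg, with a median of 0.10. Socs5 and Socs4 each rose by 0.27 and Socs7 by 0.21, while Usp18, which restrains type I interferon receptor signalling and is itself interferon-induced, fell by 0.60 (limma adjusted p = 0.000224). In Tcon Ptpn6, the gene of the phosphatase SHP-1, rose by 0.36 (adjusted p = 0.0258) and none fell, and the block called 4. With Ddx3y as a covariate 1 rose and 1 fell in Treg, Socs5 and Usp18, and Ptpn6 in Tcon did not pass (0.123). Without venetoclax replicates 1 and 3 none of the 16 rose in Treg (limma adjusted p = 0.0942 for Socs5) and Usp18 fell, and none passed in Tcon. Of 9 genes linked to STAT3, Maf (0.91), Prdm1 (0.58), Ahr (0.53) and Batf (0.39) rose in Treg, and Junb, an immediate early gene, fell by 1.65, with a median of 0.21. Junb varied widely, at 7271 ± 3541 normalized counts in venetoclax Treg and 22300 ± 10519 in vehicle Treg (SD, n = 4 each). Without venetoclax replicates 1 and 3 the calls of Junb (limma adjusted p = 0.0669) and Batf (0.0554) were lost and 3 rises remained. In Tcon none of the 9 passed with limma (2 had an unadjusted p under 0.05, and edgeR called 0, DESeq2 1 and the block 4). Junb was lower with venetoclax in Tcon too, with a log2 value of -1.98 (limma adjusted p = 0.059) and overlapping groups. It passed there with DESeq2 (adjusted p = 0.0304) and with the block (limma adjusted p = 4.06e-05).

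Of 31 interferon-induced genes 25 were measured in each subset, and in Treg they split, with 6 higher and 7 lower and a median of -0.06. With Ddx3y as a covariate 4 were higher and 4 lower, and without venetoclax replicates 1 and 3 there were 3 higher and 5 lower. Those that rose were Gbp2, Gbp3, Gbp7, Nlrc5, Parp14 and Dtx3l, of which the guanylate-binding proteins and Nlrc5, the activator of MHC class I genes, are known for strong induction by interferon gamma. Those that fell were Ifit1, Ifit3, Irf7, Oas2, Rsad2, Usp18 and Xaf1, antiviral genes known for induction by type I interferon. The genes were sorted by known inducer after their values were seen. With Ddx3y as a covariate, Nlrc5 (limma adjusted p = 0.0649), Dtx3l (0.0649), Ifit1 (0.163), Rsad2 (0.145) and Xaf1 (0.0506) did not pass. Without venetoclax replicates 1 and 3, Gbp2 (limma adjusted p = 0.111), Nlrc5 (0.157), Dtx3l (0.299), Rsad2 (0.119) and Xaf1 (0.0697) did not. Ifit1 also did not pass with DESeq2 (adjusted p = 0.0736). Not passing were Irf1 (log2 value -0.06), Tap1 (-0.05), Psmb8 (-0.03), Psmb9 (-0.09), Gbp4 (0.13), Gbp6 (0.15) and Socs1 (0.13). Irf9 (-0.03), Isg15 (-0.24), Isg20 (-0.11), Zbp1 (-0.14) and Rtp4 (-0.42) did not pass either. Gbp3 had 4764 ± 335 normalized counts with venetoclax and 3473 ± 258 with vehicle (SD, n = 4 each; log2 change 0.46, limma adjusted p = 0.000518). Oas2 had 111 ± 18.2 with venetoclax and 199 ± 38.6 with vehicle, and fell by 0.83 on the log2 scale (limma adjusted p = 0.00296). In Tcon none of the 25 passed with limma (4 had an unadjusted p under 0.05, and edgeR called 0, DESeq2 3 and the block 9), with a median of 0.02. Log2 values there were -0.78 for Ifit3, -0.67 for Rsad2, -0.64 for Ifit1, -0.27 for Usp18 and -0.26 for Irf7. Oas2 (-0.11) and Xaf1 (-0.04) lay nearer 0. Parp14 had 0.31, Nlrc5 0.26, Gbp3 0.24, Gbp2 0.2, Dtx3l 0.19 and Gbp7 0.03. DESeq2 called Ifit3 (adjusted p = 0.0105), Rsad2 (0.0185) and Parp14 (0.0315). No difference between the subsets is given for these genes.

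**Figure D5:**
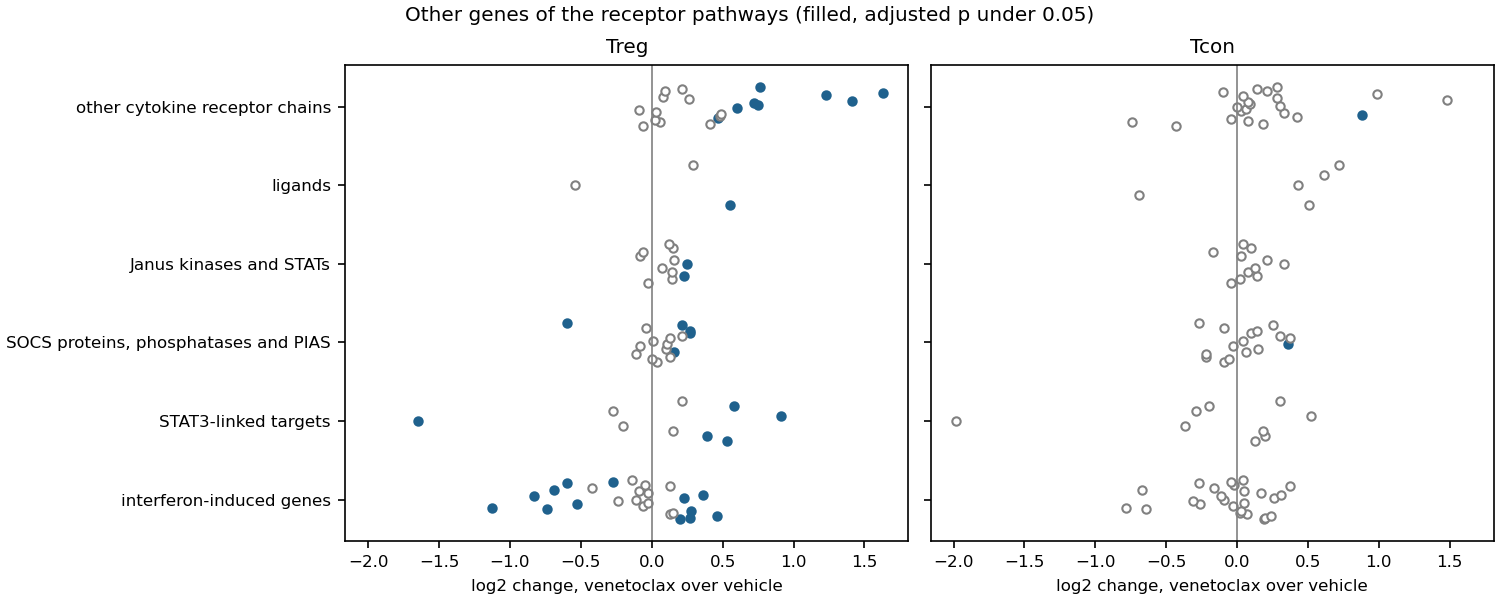
Log2 change, venetoclax over vehicle, of each measured gene of the 6 pathway lists, Treg left and Tcon right, filled where the limma adjusted p was under 0.05. In Treg the other receptor chains that passed all lie right of 0, and the interferon-induced genes that passed lie on both sides of it.

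The genes whose levels followed a member most closely were searched for the member with the smallest p in each subset. In Treg, among 9216 genes, log2 levels of Fam98a (Pearson r = 0.997), Myo3b, a myosin gene (0.995), and Zfp664, a zinc finger gene (0.985), were most like Ifngr1 over the 8 libraries. In Tcon, among 8911 genes, those most like Il10ra were Heatr1, a ribosome assembly gene (0.991), Dnmt1, the maintenance DNA methyltransferase (0.983), and Rmi2 (0.982). These 8 libraries include both treatments, so genes that differ between the treatments share that difference.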

How the data were processed

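The authors aligned reads to mm10 with HISAT2 and handled them with SAMtools, per the submitters' processing notes. The sources used here give no versions, read counter, annotation or strand setting. Treg and Tcon were deposited as separate tables. Library columns hold a normalized signal per gene, the authors' reads over a library's size factor, per the file headers and values. In every column 100% of values were whole multiples of 1 step within a tolerance of 0.01, so reads were recovered. The authors' deposited log2 fold change and their p-value and adjusted p-value columns were used only where named.

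Repeated lines (40 in Tcon, 43 in Treg) were dropped. limma 3.58.1 (R 4.3.3, mean-dependent prior) tested log2(normalized count + 1), 4 venetoclax against 4 vehicle libraries per subset, with Benjamini-Hochberg adjustment over all genes, and the interaction over 16 libraries. edgeR 4.0.16 and DESeq2 1.42.0 on recovered reads were alternatives, with other pseudocounts, scalings and filters, a replicate block, and libraries left out. limma and edgeR per subset, and the limma interaction, were also run on simulated counts with the same dispersion for every gene and no pairing. DESeq2, the block and covariate fits and the Treg over Tcon contrasts were not checked in this way. RPKM used GENCODE M21 basic exon lengths. Depth limits no member: the lowest normalized count was 544.6. Same-numbered libraries of the 2 treatments were correlated in their deviations from group means. The r was 0.131, 0.604, 0.645 and 0.277 in Tcon, and -0.105, 0.445, 0.229 and 0.397 in Treg. In both subsets vehicle libraries 2 to 4 correlated most with their own number. Vehicle library 1 correlated more with another venetoclax library (0.34 in Tcon, 0.382 in Treg). Whether the numbers pair is thus unsettled in both. Treg and Tcon libraries of 1 code correlated at 0.474 to 0.801.

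The members and lists were chosen with earlier results of these data known. All members are named, and from each list up to 4 genes with the smallest p. Other list genes named were chosen after their values were seen. They are the remaining measured interferon-induced genes, Junb, Ifnar2, Il2rg and Ifng. The alternatives without venetoclax replicates 1 and 3 and with all-transcript exon lengths were added after seeing the data.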

Additional observations from a re-analysis of the deposited data

How the results depend on the processing

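The rises of Ifngr1 and Il10ra in both subsets, and the falls of Ifnar1 and Ifngr2 in Treg, held under all 20 alternatives run. Leaving out 1 library at a time, between 5 and 7 members passed in Treg and between 2 and 5 in Tcon. In Tcon 2 members passed with Ddx3y as a covariate and without venetoclax replicates 1 and 3 (Ifngr1 and Il10ra each time). Over all genes the count of 2164 in Treg ranged from 1327 (without venetoclax replicate 1) to 2198 with 1 library left out, was 1419 without vehicle replicate 3, and was 1028 without both libraries numbered 3 and 614 without venetoclax replicates 1 and 3. In Tcon the count of 772 ranged from 306 (without venetoclax replicate 1) to 1244 (without vehicle replicate 3), with 461 without vehicle replicate 1, 458 without vehicle replicate 2 and 415 without venetoclax replicate 2. It was 1364 with DESeq2, 326 with Ddx3y as a covariate, 1443 without both libraries numbered 3, 116 without venetoclax replicates 1 and 3, and 1880 with the replicate block. The Treg block called 2467 genes and the same 6 members. The Tcon block changed no member's call but that of Ifngr2. Pairing by number is unsettled in both subsets. The interaction count of 140 ranged from 43 to 149 with 1 code left out (under 100 without vehicle 1, 2 or 4 or venetoclax 1, 2 or 3) and was 295 with DESeq2, 82 over genes averaging 100 normalized counts or more and 389 with the block; no member passed in any of them. Among values near 0 that did not pass, Il10rb in Treg ranged from -0.04 to 0.02 with 1 library left out and was 0.02 without venetoclax replicates 1 and 3. Il6ra in Tcon ranged from -0.12 to 0.10 and was 0.09 in that alternative, and the interaction of Ifngr1 ranged from -0.08 to 0.09. In vehicle Treg, neighbouring pairs that did not overlap in the level order numbered 3 with all-transcript exon lengths, against 6. The other 3 groups kept their number but not their order. The cause of these changes was not tested, beyond the fewer libraries or genes in those fits. With 4 libraries a group, and 2 in the smallest, replicate spread limits what small changes can show.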
